A study of Homo sapiens with 6 samples.

Results

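The enzymes of the pentose phosphate pathway were followed in SKOV3 cells, an established human ovarian carcinoma line, after silencing of the long non-coding RNA NRCP. The set holds 9 genes (H6PD, PGLS, PGD, RPIA, RPE, TKT, TALDO1, PRPS1 and PRPS2) of 20046 named genes on the array, and was taken by gene symbol from the platform's probe annotation, which gave these genes 14 probes. All samples came from the one cell line. The 3 samples named sicontrol had received control siRNAs and the 3 named siNRCP an siRNA against NRCP, each for 48 h, and 1 Illumina bead array was read per sample. Nothing stated whether the samples of a group were separate cultures, so the p-values rest on the spread between these arrays alone, and that spread may be technical. The small number of arrays limits the precision. NRCP itself was not among the named probes, and how far it was silenced was not analysed here.

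The pentose phosphate pathway branches from glycolysis at glucose 6-phosphate. Its oxidative arm makes NADPH, the reductant for lipid synthesis and for the defence against oxidants, and ends in ribulose 5-phosphate. Its non-oxidative arm exchanges carbon units between sugar phosphates, so that pentoses can be made from, or returned to, glycolytic intermediates. Ribose 5-phosphate is then activated to phosphoribosyl pyrophosphate (PRPP), the ribose donor for purine, pyrimidine and NAD synthesis. Tumour cells draw on both arms for reducing power and nucleotides.

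Promoter sequence is shown for TKT with TALDO1, the enzymes of the non-oxidative exchange, and for PRPS1 with PRPS2, close relatives with the same reaction, because within each pair the measured differences had opposite signs after quantile normalization (for TKT the sign turned under median scaling, given below). Each window runs from 250 bases before to 50 bases after the annotated start (RefSeq, GRCh38.p14), 5′ to 3′ on the gene's strand. Capitals mark matches, on either strand, to the GC box letters GGGCGG and the CCAAT box letters CCAAT.
TKT, chr3:53255973-53256272, minus strand: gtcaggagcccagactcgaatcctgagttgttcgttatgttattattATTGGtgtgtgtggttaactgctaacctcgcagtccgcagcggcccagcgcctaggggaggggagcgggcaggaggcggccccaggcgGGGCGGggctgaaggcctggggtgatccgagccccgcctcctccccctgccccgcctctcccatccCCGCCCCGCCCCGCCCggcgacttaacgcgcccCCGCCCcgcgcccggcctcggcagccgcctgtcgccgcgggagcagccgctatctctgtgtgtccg
TALDO1, chr11:747214-747513, plus strand: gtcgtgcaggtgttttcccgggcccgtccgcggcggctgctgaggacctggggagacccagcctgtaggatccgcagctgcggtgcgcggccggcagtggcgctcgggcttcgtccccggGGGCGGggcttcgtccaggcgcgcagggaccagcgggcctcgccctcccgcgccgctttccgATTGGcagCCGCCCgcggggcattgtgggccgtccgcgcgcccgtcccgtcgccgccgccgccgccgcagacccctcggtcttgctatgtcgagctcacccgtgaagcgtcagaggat
PRPS1, chrX:107628260-107628559, plus strand: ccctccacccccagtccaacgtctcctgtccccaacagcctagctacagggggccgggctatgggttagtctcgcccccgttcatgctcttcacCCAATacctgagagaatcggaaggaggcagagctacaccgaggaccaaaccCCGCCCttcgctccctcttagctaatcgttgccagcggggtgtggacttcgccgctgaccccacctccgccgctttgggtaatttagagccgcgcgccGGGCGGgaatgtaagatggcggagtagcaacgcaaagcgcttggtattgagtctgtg
PRPS2, chrX:12791162-12791461, plus strand: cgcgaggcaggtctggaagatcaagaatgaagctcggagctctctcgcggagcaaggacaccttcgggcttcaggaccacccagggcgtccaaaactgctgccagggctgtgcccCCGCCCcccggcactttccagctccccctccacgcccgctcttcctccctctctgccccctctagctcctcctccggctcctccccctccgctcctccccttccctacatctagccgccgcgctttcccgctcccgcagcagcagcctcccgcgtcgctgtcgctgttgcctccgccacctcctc
The TKT window held 5 GC box matches, 3 of which overlap by their end bases, and 1 CCAAT match. TALDO1 held 2 and 1, PRPS1 held 2 and 1, and PRPS2 held 1 GC box match and no CCAAT match. Over all 9 genes 8 windows held a GC box match (H6PD did not) and 6 a CCAAT match, where 45.0% and 34.6% of the 35116 promoters of the table did. The antioxidant response element core TGACNNNGC was matched in PGD and RPE (13.3% of all promoters), and the hypoxia response element core ACGTG in PGD (21.4%). The E-box letters CACGTG, which contain the hypoxia core, and the TATA box letters TATAAA, which 7.26% and 11.5% of all promoters held, were matched in 0 of the 9. These matches describe the letters of the windows only.

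The arrays were alike in brightness except siNRCP array 2 and, to a lesser degree, siNRCP array 3. Mean raw intensity was 373 and 486 on these arrays and between 554 and 563 on the others. Probes of olfactory receptor genes, 457 in number, set a background level for each array at their 95th percentile, and 39.6% to 43.3% of the 47231 probes exceeded it. Across the 16122 probes above that level on all 6 arrays, siNRCP arrays 2 and 3 resembled each other (median absolute difference 0.15 log2) more than either resembled siNRCP array 1 (0.51 and 0.46), and the 3 sicontrol arrays lay within 0.12 to 0.18 of each other. siNRCP array 1 lay nearer to the sicontrol arrays (0.22 to 0.28) than to the other arrays of its own group. The part of this split, and of the dimmer siNRCP arrays 2 and 3, in the results below was not tested. Values for every array are therefore given. All 6 epithelial and SKOV3 markers (KRT7, KRT8, KRT18, KRT19, ERBB2 and PAX8) were above background on every array, and 0 of 7 measured blood and endothelial markers were.

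Each of the 9 genes had a probe above background on all 6 arrays, and 5 of them had only 1 probe. In all, 10 of the 14 probes were above background on every array. Of the other 4, both further RPE probes and the second H6PD probe were above it on 0 arrays, and the second TALDO1 probe on 2 sicontrol arrays. Levels below are log2 intensities after background correction and quantile normalization, differences are siNRCP minus sicontrol, and a probe counted as changed when its limma p, adjusted over all 47231 probes, was under 0.05. The array reads RNA from a whole culture, so less of a transcript per cell and fewer cells that hold it cannot be told apart.

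**Figure D1:**
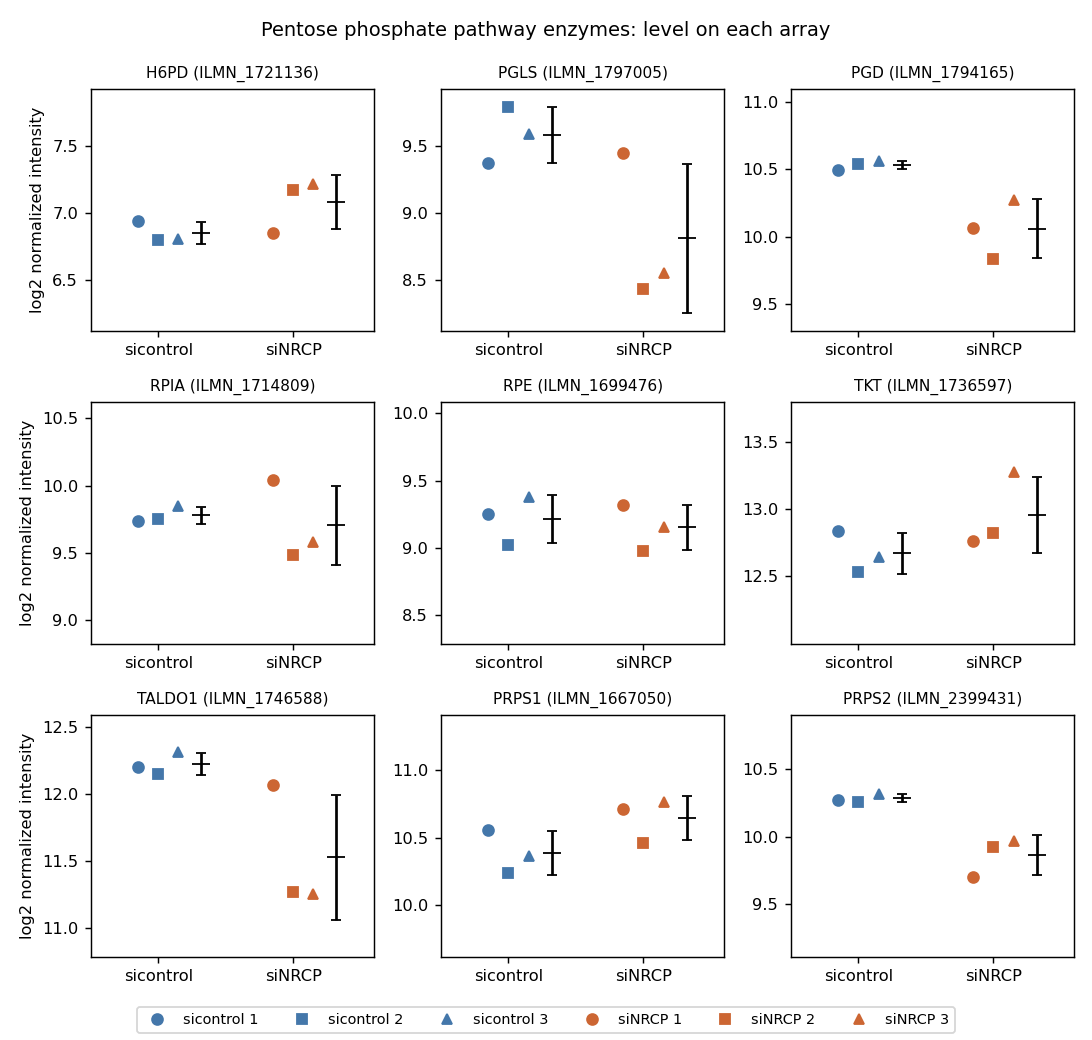
Log2 normalized intensity of the brightest probe of each of the 9 genes on each array, with sicontrol in blue and siNRCP in orange and a different marker for each array number; black bars give the mean ± SD of 3 arrays. Every panel spans the same range of log2 units, so the drop of siNRCP arrays 2 and 3 for PGLS and TALDO1 can be set against PGD and PRPS2, for which siNRCP array 1 also lies clearly below the sicontrol arrays.

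Of the oxidative arm, PGD lay lower on every siNRCP array, PGLS on 2 of the 3, and H6PD did not lie lower. PGD, the 6-phosphogluconate dehydrogenase that makes NADPH and releases ribulose 5-phosphate (probe ILMN_1794165), read 10.50, 10.54 and 10.56 in sicontrol and 10.06, 9.83 and 10.28 in siNRCP, here and below in the order of arrays 1 to 3. The groups did not overlap, and the sicontrol arrays were close together (10.53 ± 0.03, SD, n = 3) while the siNRCP arrays were spread out (10.06 ± 0.22). The difference was -0.48 ± 0.12 log2 (SE, n = 3 per group; 95% interval -0.76 to -0.19) and did not pass (limma adjusted p = 0.13).

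PGLS, the lactonase that hydrolyses the product of the first oxidation (ILMN_1797005), read 9.37, 9.79 and 9.59 in sicontrol and 9.45, 8.43 and 8.55 in siNRCP. Here siNRCP array 1 lay among the sicontrol arrays, and siNRCP arrays 2 and 3 lay below them by 1.15 and 1.03 relative to the sicontrol mean. The difference over all arrays was the largest of the 9 genes, at -0.77 ± 0.26 log2 (95% interval -1.39 to -0.16; limma adjusted p = 0.24).

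H6PD, a dehydrogenase inside the endoplasmic reticulum (ILMN_1721136), was dim and close to the background level of 6.42 to 6.49. It read 6.94, 6.80 and 6.81 in sicontrol and 6.85, 7.17 and 7.22 in siNRCP. Again siNRCP array 1 lay among the sicontrol arrays and the other siNRCP arrays apart from them, this time above. The difference was 0.23 ± 0.12 log2 (95% interval -0.05 to 0.51, limma adjusted p = 0.48). Under the median scaling described below for TKT it was 0.11 (limma adjusted p = 0.80). The second H6PD probe (ILMN_2198823) lay at background, at 6.07 ± 0.19 and 6.01 ± 0.16.

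The enzymes that interconvert the pentose phosphates showed no difference beyond the spread of the arrays. RPIA, the isomerase that makes ribose 5-phosphate (ILMN_1714809), read 9.73, 9.75 and 9.85 in sicontrol and 10.04, 9.49 and 9.58 in siNRCP. The siNRCP arrays lay on both sides of the sicontrol arrays, and the difference was -0.08 ± 0.15 log2 (95% interval -0.43 to 0.28; limma adjusted p = 0.89). RPE, the epimerase that makes xylulose 5-phosphate (ILMN_1699476), read 9.25, 9.02 and 9.38 in sicontrol and 9.32, 8.98 and 9.16 in siNRCP. The groups overlapped, with a difference of -0.06 ± 0.13 log2 (95% interval -0.37 to 0.24; limma adjusted p = 0.90). The 2 other RPE probes (ILMN_1791523 and ILMN_1655932) lay at background, between 5.69 and 6.11.

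In the non-oxidative arm neither the transaldolase TALDO1 nor the transketolase TKT passed. TALDO1 lay lower on every siNRCP array, and the sign of the TKT difference depended on the scaling. TALDO1, which moves 3-carbon units between sugar phosphates (ILMN_1746588), read 12.20, 12.15 and 12.32 in sicontrol and 12.07, 11.27 and 11.25 in siNRCP. The groups did not overlap, but siNRCP array 1 was only 0.16 below the sicontrol mean where arrays 2 and 3 were 0.95 and 0.97 below it. The difference was -0.69 ± 0.21 log2 (SE, n = 3 per group; 95% interval -1.19 to -0.19; limma adjusted p = 0.20). Its dim second probe (ILMN_1670998) was above background on 0 siNRCP arrays, at 6.44 ± 0.06 and 6.31 ± 0.03, so no change is given for it.

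TKT, which moves 2-carbon units and uses thiamine diphosphate (ILMN_1736597), read 12.84, 12.54 and 12.65 in sicontrol and 12.77, 12.82 and 13.28 in siNRCP. Only siNRCP array 3 lay above all sicontrol arrays. The difference was 0.28 ± 0.16 log2 (95% interval -0.08 to 0.65; limma adjusted p = 0.50), and it turned to -0.07 (limma adjusted p = 0.94) when arrays were scaled to a common median in place of quantile normalization. That scaling moved the median of the probes above background on all arrays by -0.18 log2, from 0.02 to -0.16, and moved the brightest probes of the 9 genes by -0.12 to -0.35.

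PRPS1 and PRPS2 encode PRPP synthetases, which carry ribose 5-phosphate into nucleotide synthesis, and both genes lie on the X chromosome. PRPS2 lay lower on every siNRCP array on both of its probes. ILMN_2399431 read 10.28, 10.26 and 10.32 in sicontrol and 9.70, 9.92 and 9.97 in siNRCP, and ILMN_1758104 read 9.84, 9.63 and 9.69 against 9.41, 9.28 and 9.38. Neither probe's groups overlapped, and on siNRCP array 1 the probes read 0.59 and 0.31 below the sicontrol mean, where TALDO1 read 0.16 and PGLS 0.13 below it. The differences were -0.42 ± 0.10 and -0.36 ± 0.10 log2 (95% intervals -0.66 to -0.19 and -0.58 to -0.14), and neither passed (limma adjusted p = 0.10 and 0.14).

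PRPS1 (ILMN_1667050) read 10.56, 10.24 and 10.36 in sicontrol and 10.71, 10.46 and 10.76 in siNRCP. siNRCP arrays 1 and 3 lay above all sicontrol arrays and array 2 did not. The difference was 0.26 ± 0.12 log2 (95% interval -0.03 to 0.55; limma adjusted p = 0.43), and 0.02 under median scaling. The probe letters were not used here, so whether the PRPS1 and PRPS2 probes each bind only their own transcript was not tested.

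**Figure D2:**
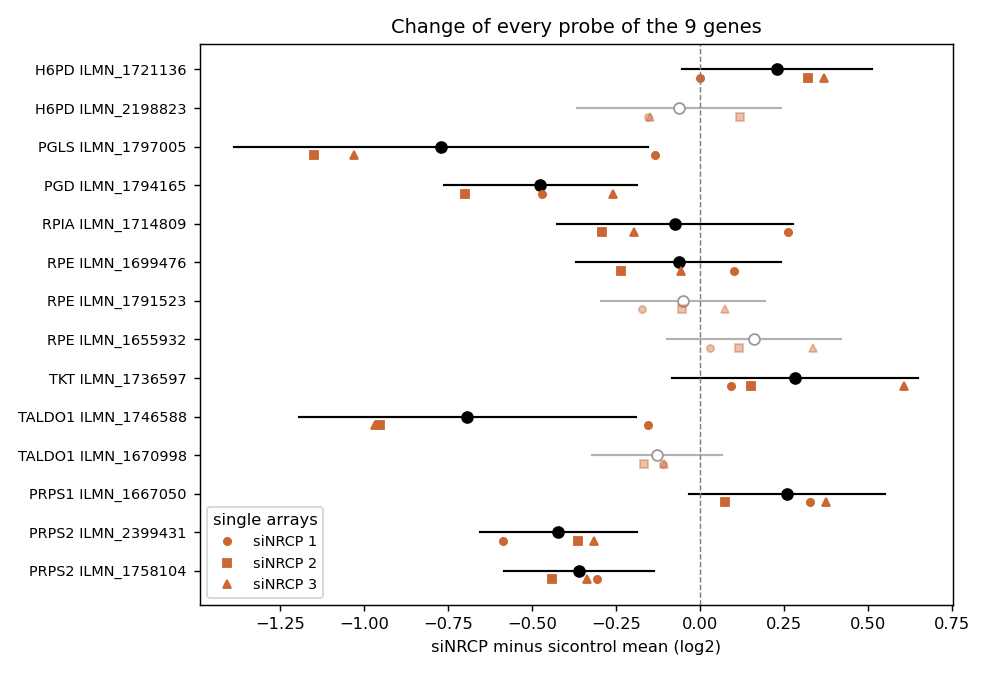
Difference from the sicontrol mean for all 14 probes, in log2 units: circles give the siNRCP minus sicontrol difference with its 95% interval from limma, in grey and open where the probe was not above background on all 6 arrays, and small orange markers give the single siNRCP arrays. For PGLS and TALDO1 (ILMN_1746588) siNRCP array 1 stands near 0 while arrays 2 and 3 lie near -1, and for both PRPS2 probes all 3 arrays lie between -0.59 and -0.31.

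Over all 47231 probes limma called 781, or 1.65%, and it called 0 of the 14 probes of the 9 genes. Among probes above background on all 6 arrays 4.48% were called. At an unadjusted limma p under 0.05, 5 of these 10 were lower (PGLS, PGD, TALDO1 and both PRPS2 probes) and 0 higher, where 14.4% of all probes above background were lower and 17.5% higher at that level. The siNRCP arrays lay below every sicontrol array on 4 of the 10 (PGD, TALDO1 and both PRPS2 probes) and above every one on 0, against 13.2% and 15.5% of all probes above background. With 1 probe per gene, 6 of the 9 differences were below 0 and 3 above, with a median of -0.08 log2 and a range of -0.77 to 0.28. The median over all 20046 genes was 0.01, and 0.04 over the 10038 above background on all arrays. On siNRCP arrays 1 to 3 taken singly, the median of the 9 genes lay 0.00, -0.29 and -0.20 from the sicontrol mean.

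Whether probes of PGLS, TALDO1, PGD, PRPS2 and H6PD passed depended on which arrays were used and how they were weighted. RPIA, RPE and PRPS1 did not pass under any setting. Without siNRCP array 1, PGLS (-1.09, limma adjusted p = 1.1e-05), TALDO1 (-0.95, adjusted p = 9.1e-06), PGD (-0.47, adjusted p = 0.012) and both PRPS2 probes (-0.33 and -0.39, adjusted p = 0.036 and 0.020) fell and H6PD rose (0.34, adjusted p = 0.033), which makes 6 of the 10 probes above background. That fit called 55.6% of all probes above background, so 6 of 10 is near the background. Weights estimated for each array gave siNRCP array 1 the least weight, 0.276, and called 7 of the 10, the same 6 and TKT (0.47, adjusted p = 0.040), where 45.4% of all probes above background were called. Under the 13 other settings 0 of the tested probes passed, which were all 14 except under the background filter, where 10 were tested. Without any one of the other 5 arrays, the differences of PGLS, TALDO1, PGD and PRPS2 kept their sign.

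**Figure D3:**
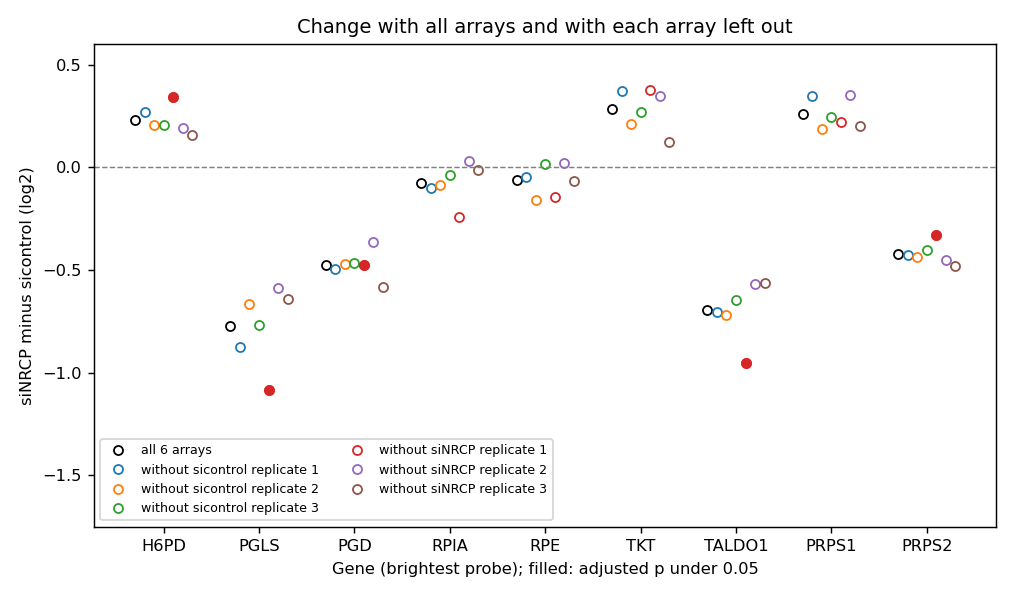
Difference between siNRCP and sicontrol, in log2 units, for the brightest probe of each of the 9 genes with all 6 arrays (black) and with each array left out in turn (colours); filled circles passed at a limma adjusted p under 0.05. Filled circles occur only without siNRCP array 1, for H6PD, PGLS, PGD, TALDO1 and PRPS2, and without that array the PGLS and TALDO1 differences are -1.09 and -0.95.

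Ratios between 2 members were compared within each array because a shift of a whole array on the log scale cancels in them. The 4 pairs follow steps of the pathway and were chosen after the values had been seen. With 3 arrays against 3, the exact two-sided permutation test cannot give a p below 0.10, and any pair without overlap gives 0.10. Adjustment over the 4 pairs does not cover the way they were chosen, so the p-values below are no evidence for these pairs. The log2 ratio of PRPS1 to PRPS2 was higher on every siNRCP array, by 0.91, 0.44 and 0.69 on arrays 1 to 3 relative to the sicontrol mean, where the sicontrol arrays read 0.18, -0.12 and -0.06. Its change was 0.68, with an exact permutation p of 0.10 and 0.20 after Benjamini-Hochberg adjustment over the 4 pairs. The ratio of TKT to TALDO1 read 0.25, 1.10 and 1.57 on the siNRCP arrays against 0.18, -0.06 and -0.12 in sicontrol, also without overlap, with a change of 0.98 (exact permutation p = 0.10, adjusted 0.20). On siNRCP array 1 the TKT ratio was close to the highest sicontrol array, whereas the ratio of the PRPP synthetases was farthest from sicontrol on that array. The ratios of PGD to PGLS (change 0.30, exact permutation p = 0.50) and RPIA to RPE (change -0.01, exact permutation p = 0.90) overlapped between the groups. How often ratios of other gene pairs separate without overlap was not computed. Of single probes above background on all 6 arrays, 13.2% lay lower and 15.5% higher in siNRCP without overlap. TALDO1 and PRPS2 were already among those that lay lower.

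**Figure D4:**
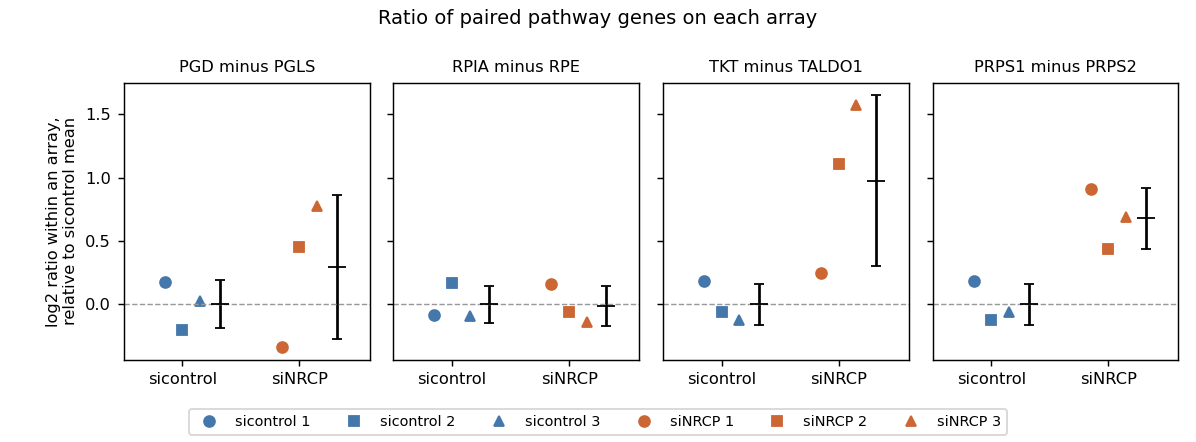
Log2 ratio between the brightest probes of 2 genes on each array, relative to the mean of the 3 sicontrol arrays, for 4 pairs; markers give single arrays and black bars the mean ± SD of 3. The siNRCP arrays lie above all sicontrol arrays for PRPS1 minus PRPS2, at 0.44 to 0.91, and for TKT minus TALDO1, at 0.25 to 1.57. The share of other gene pairs that separate without overlap was not computed.

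Genes next to the pathway were counted in 4 lists of 48 measured genes, again chosen with earlier results of these data known, with the brightest probe for each gene and a background of 2.79% of all genes called. At an unadjusted limma p under 0.05, 9.52% of all genes were lower and 11% higher. Most genes of the lists were above background on all 6 arrays (10 of 13, 14 of 14, 9 of 12 and 7 of 9, in the order below), where calls were more frequent. Of the 10038 genes above background on all 6 arrays, limma called 275 lower and 250 higher. At the unadjusted level 1572 of these 10038 were lower and 1987 higher. Of the pentose side reactions and PRPP synthetase partners 1 of 13 fell and 0 rose (5 were lower and 0 higher at an unadjusted p under 0.05), with a median of -0.13 log2. The gene that fell was PRPSAP2, a regulatory partner of the PRPP synthetases, with a difference of -0.56 ± 0.10 log2 (SE over 3 and 3 arrays; adjusted p = 0.043 in limma). Its arrays read 9.52, 9.61 and 9.65 in sicontrol and 9.08, 8.89 and 9.13 in siNRCP, with no overlap. Its second probe read -0.33 ± 0.09 (adjusted p = 0.16), and without any one array other than siNRCP array 1 the brighter probe did not pass (adjusted p = 0.12 to 0.24). With all arrays it passed under 4 of 9 other settings. The related PRPSAP1 read 0.25 ± 0.11 (adjusted p = 0.36), and DERA, the deoxyribose phosphate aldolase, -0.55 ± 0.22 (adjusted p = 0.32).

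Enzymes of the nucleotide and NAD synthesis routes that draw on PRPP had a median of 0.07 log2. Of these, 0 of 14 measured genes passed in limma (2 were lower and 2 higher at an unadjusted p under 0.05). PAICS, a step of purine synthesis, read 0.07 ± 0.23 and turned to -0.24 under median scaling, and HPRT1, the purine salvage enzyme, read -0.60 ± 0.18 (limma adjusted p = 0.17). Of the other enzymes that make or use NADPH 0 of 12 passed in limma (3 were lower and 1 higher at an unadjusted p under 0.05), with a median of 0.06. IDH1, a cytosolic dehydrogenase that makes NADPH, read -0.34 ± 0.12 (limma adjusted p = 0.26). TXNRD1, the thioredoxin reductase that uses NADPH, read 0.07 ± 0.18 and turned to -0.18 under median scaling. A second TXNRD1 probe (ILMN_2324421), above background on all 6 arrays, had the opposite sign (-0.20 ± 0.13, limma adjusted p = 0.57).

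At the junction with glycolysis, where glucose 6-phosphate leaves and fructose 6-phosphate and glyceraldehyde 3-phosphate return, 2 of 9 genes fell and 0 rose (5 were lower and 0 higher at an unadjusted p under 0.05), with a median of -0.46 log2. They were GPI, which links glucose 6-phosphate and fructose 6-phosphate (-0.72 ± 0.12, limma adjusted p = 0.033), and GAPDH, which takes up glyceraldehyde 3-phosphate (-0.88 ± 0.16, adjusted p = 0.047). The 2 other GAPDH probes read -0.93 ± 0.22 and -0.98 ± 0.21 and did not pass (adjusted p = 0.098 and 0.080). On the siNRCP arrays the median of this list was -0.42, -0.68 and -0.55, so it was below 0 on array 1 as well. Both calls were lost on leaving out any one array other than siNRCP array 1 (adjusted p = 0.087 to 0.26). With all arrays, GPI passed under 5 of 9 other settings, and GAPDH under 1 of 9, array weights (adjusted p = 0.051 to 0.19 under the other 8). TPI1 (-1.31 ± 0.27, adjusted p = 0.067) and ALDOA (-0.99 ± 0.24, adjusted p = 0.10) did not pass on their brightest probes, and a second bright ALDOA probe did (-0.88 ± 0.15, adjusted p = 0.040). A dim ALDOA probe (ILMN_2251253), above background on the 3 siNRCP arrays and 0 sicontrol arrays, had the opposite sign (0.61 ± 0.20, adjusted p = 0.22), and the remaining ALDOA probe was at background.

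**Figure D5:**
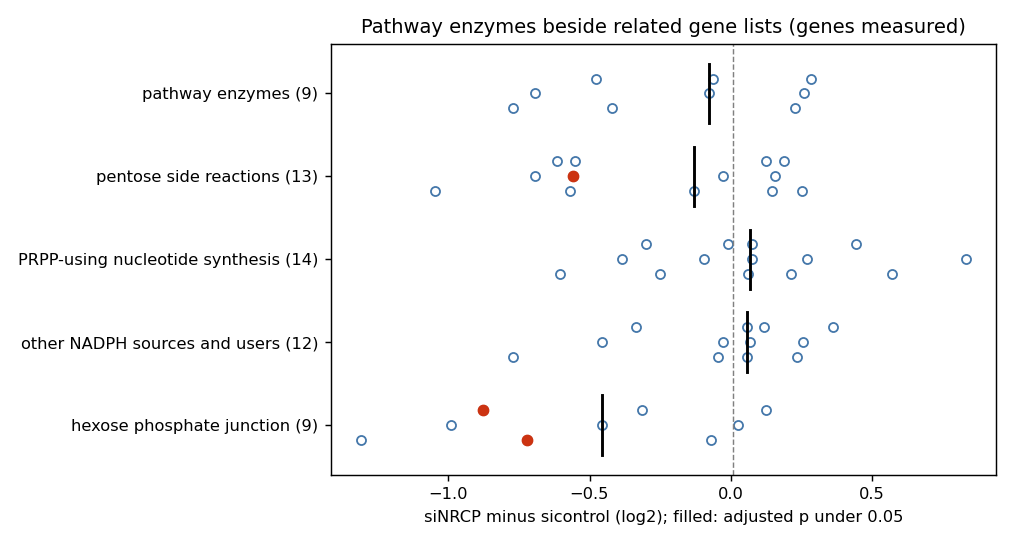
Difference between siNRCP and sicontrol, in log2 units, for the brightest probe of each gene in the pathway and in 4 related lists, with the number of measured genes in brackets; filled red circles passed at a limma adjusted p under 0.05, black bars mark each list's median and the dashed line the median of all genes. The pathway's median of -0.08 lies near the line, and the glycolytic junction's, at -0.46, farthest from it.

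The mean profile of the 9 genes over the 6 arrays was compared with the brightest probes of 10029 other genes above background on all arrays, each set relative to its own sicontrol mean. The nearest were MRPL49, NHERF1, SNORA7B, DPAGT1 and CENPQ, with mean absolute distances of 0.02 to 0.03 log2 over 6 arrays and differences of -0.14 to -0.19 (limma adjusted p = 0.44 to 0.68 for these 5). These 5 were selected as the closest of the 10029, so their distances are no measure of a typical gene. The members lay from 0.09 (RPIA) to 0.38 (PGLS) from their own mean profile. That profile averages genes whose differences had opposite signs, so it does not stand for each of them.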

How the data were processed

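Total RNA of 3 sicontrol and 3 siNRCP samples had been labelled with biotin and hybridised, per the labels' protocols. The authors deposited bead intensity per probe and array, not normalized, exported from BeadStudio per the submitters' processing notes (its version is not given in the sources used here), without detection p-values. They also deposited log2 values with the same distribution on every array, used as an alternative.

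Intensities were corrected with normexp (offset 50), quantile normalized and put on the log2 scale. All 47231 probes were fitted in limma 3.58.1 (R 4.3.3; lmFit, eBayes) as siNRCP minus sicontrol without covariates, with Benjamini-Hochberg adjustment over all probes and a threshold of 0.05. Gene names came from the platform annotation (30113 probes with 1 symbol, 8 with several, 17110 with none), and promoters from RefSeq. The probe with the highest mean stood for a gene. Fitting was tested on simulated data with independent noise for each probe and array. Such data lack the split among the siNRCP arrays, so the test does not cover it. Members, gene lists, background level and tests were chosen with earlier results of these data known. Named were all members, related genes that passed and at most 4 others of each list in order of signal (the 2 brightest were named), and the 5 genes nearest to the members' mean profile. Alternatives covered background correction, normalization, variance model, array weights, replicate block, a background filter and leaving out each array.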

Additional observations from a re-analysis of the deposited data

How the results depend on the processing

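Of the pathway's tested probes 0 passed as reported and under 13 of 15 other settings; 7 passed with array weights and 0 to 6 with 1 array left out (6 without siNRCP array 1). The count over all probes, 781, became 254 under median scaling, 468 with the trend and robust options, 8162 with array weights, 0 with the replicate number as a block and 10 to 9955 with 1 array left out. The block gave 0 pathway probes and 0 related genes. Same-numbered arrays deviated oppositely from their group means (r = -0.67, -0.46 and -0.23 across probes). Deviations within a group of 3 sum to 0 and are not independent. These values therefore cannot show whether the number pairs the samples, and nothing stated it. The count of 3 related genes, of 48 measured, became 0 under median scaling and 1 with the background filter (GPI). With trend and robust options it was 1 (IDNK, not among the 3, named after its values were seen). It was 22 with array weights and 0 to 23 with 1 array left out (23 without siNRCP array 1). Of all probes above background on all 6 arrays, array weights called 45.4% and leaving out siNRCP array 1 called 55.6%. The median of the 9 genes, -0.08, was -0.30 under median scaling and ranged from -0.24 (without siNRCP array 1) to 0.022 (without siNRCP array 2). Signs turned for TKT (-0.070), PAICS (-0.24) and TXNRD1 (-0.18) under median scaling and for the background-level RPE probe ILMN_1791523 (0.018) with array weights. With 1 array left out, ranges crossing 0 were -0.24 to 0.032 for RPIA, -0.16 to 0.022 and -0.11 to 0.0093 for RPE (ILMN_1699476 and ILMN_1791523), -0.16 to 0.026 for the dim H6PD probe, -0.096 to 0.072 for the ratio of RPIA to RPE, -0.064 to 0.34 for PAICS and -0.11 to 0.25 for TXNRD1. The cause of these changes was not tested. Signal over background limits H6PD and the 4 probes not above it on all arrays.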
